A study of Mus musculus with 2 samples.

Results

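The junctions described here were those of TCRα chains in which the V gene segment met the J gene segment with no nucleotide between them. They were taken from clonotype tables of iT cells, T cells regenerated in the mouse from embryonic stem cells. A clonotype is a distinct CDR3 nucleotide sequence with its V and J genes, and the CDR3 is the stretch that spans the join. A productive clonotype (in frame, with no stop codon) with a TRAJ gene was counted as a zero-insertion junction when the distance from the end of its V alignment to the start of its J alignment was 0 or less, so that the ends either touched or overlapped. There were 4166 such clonotypes among 19558 clonotypes of both chains, 1444 in the thymus library and 2722 in the spleen library, and 7030 productive TCRα clonotypes with 1 or more inserted nucleotides (3101 and 3929) served as the comparison. The rule uses the sequence alone and no read count.

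Both libraries came from iT cells of C57BL/6 origin, grown from an embryonic stem cell line (iR9-ESC) carrying a doxycycline-inducible Runx1-p2a-Hoxa9 cassette at the Rosa26 locus. Induced haematopoietic progenitors (iHPCs) made from this line had been transplanted into sublethally irradiated B-NDG recipients, a strain on the NOD background with the Prkdc scid allele and no IL2rg that makes almost no lymphocytes of its own. Per the study's text, 15000 CD4 single-positive and CD8 single-positive iT cells were sorted for each library, 6 weeks after transplantation. It calls the cells of both tissues naive and in its account of the results gives the CD62L+CD44- gate for both, whereas its list of gates names these markers for spleen only, so whether the gates differed is not settled by it. Each tissue is 1 library from 1 transplanted line with no replicate, the number of mice is not given in the sources used here, and tissue, any difference of gate and library cannot be told apart. No difference below therefore has a replicate check: intervals are 95% intervals for counting error only, and no p-value is given. The tables hold only TCR clonotypes, so no other marker of the cells was measured.

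V(D)J recombination is carried out by the RAG proteins, which cut the DNA beside a V and a J segment and leave hairpin ends. Opening a hairpin off centre leaves a few palindromic (P) nucleotides, nucleases may trim the ends, and the polymerase TdT may then add non-templated (N) nucleotides. A join without N nucleotides is encoded wholly by the germline, and where the trimmed ends carry the same few bases those bases can be assigned to either segment, which is called microhomology. TdT activity is low in foetal and high in adult mouse thymocytes, so junctions without insertions are best known from foetal repertoires.

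The 5 zero-insertion clonotypes with the most reads in spleen are shown with the germline ends they join, because they make plain what the distance measures. Each is written 5′ to 3′ from the conserved cysteine codon to the last CDR3 codon, with the bases that V and J both cover in capitals. V and J germline ends are those of the GENCODE M21 annotation of mouse GRCm38.
TRAV14N-1 germline end: tgtgcagcaagTg
TRAJ40 germline start: gtTaatacaggaaactacaaatacgtcttt
Junction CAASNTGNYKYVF: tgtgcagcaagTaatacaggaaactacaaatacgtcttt
TRAV16D-DV11 germline end: tgtgctatgagaGAggg
TRAJ7 germline start: gGActacagcaacaacagacttactttg
Junction CAMRDYSNNRLTL: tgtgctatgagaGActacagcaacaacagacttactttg
TRAV8D-1 germline end: tgtgctactgATG
TRAJ11 germline start: TGactcgggatacaacaaactcactttt
Junction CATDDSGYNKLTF: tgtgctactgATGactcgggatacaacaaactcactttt
TRAV6D-5 germline end: tgtgttctgggtgA
TRAJ9 germline start: agcaAcatgggctacaaacttaccttc
Junction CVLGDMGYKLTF: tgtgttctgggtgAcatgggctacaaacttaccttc
TRAV7-4 germline end: tgtgcagctaGtgagca
TRAJ31 germline start: Ggaatagcaataacagaatcttcttt
Junction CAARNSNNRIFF: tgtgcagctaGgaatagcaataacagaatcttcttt

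The TRAV14N-1–TRAJ40 junction had 27883 reads (1.79% of the productive TCRα reads of the spleen) and joined V and J over 1 shared base after 1 base was trimmed from V and 2 from J. The TRAV16D-DV11–TRAJ7 junction had 10330 reads and shared 2 bases, after 3 were trimmed from V and 1 from J. The TRAV8D-1–TRAJ11 junction had 10012 reads and an overlap of 3, of which 1 base on the J side was palindromic, with neither end trimmed. The TRAV6D-5–TRAJ9 junction (7772 reads) and the TRAV7-4–TRAJ31 junction (7769 reads) each overlapped by 1 base. None of these 5 alignments held a mismatch.

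In thymus the most-read members were smaller, and 3 of the 5 rested on an alignment with a mismatch. The first had 3096 reads (0.398% of productive TCRα reads) and joined TRAV14D-1, tied with another V gene, to TRAJ16 with an overlap of 7 as aligned and of 2 when the alignments were ended at the first mismatch. The next 2, both without mismatch, had a distance of 0. TRAV7N-5–TRAJ5 joined its ends directly after 1 base was trimmed from V and 1 from J. TRAV16N–TRAJ37 held 1 palindromic base on the J side, so it would count as inserted where such bases do.
TRAV14D-1–TRAJ16, 3096 reads: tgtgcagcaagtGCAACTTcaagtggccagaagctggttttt
TRAV16N–TRAJ37, 1970 reads: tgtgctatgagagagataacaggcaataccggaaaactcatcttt
TRAV7N-5–TRAJ5, 1873 reads: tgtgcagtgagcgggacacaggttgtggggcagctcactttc
The fourth, TRAV6-2–TRAJ30, had 1872 reads and an overlap of 6 that became 3 at the first mismatch. The fifth, TRAV10N–TRAJ15, had 1381 reads and a distance of 0 that became 4, so it would count as inserted under that stricter reading.

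Mismatches mattered for the whole set. MiXCR, the program that made the tables, lets a V or J alignment run through mismatches and into palindromic bases, so a distance of 0 or less does not by itself mean an exact germline join. Only 47.9% of the zero-insertion clonotypes in thymus (691 of 1444; 45.3 to 50.4) and 57.6% in spleen (1567 of 2722; 55.7 to 59.4) had no mismatch in either alignment within the CDR3, against 93.0% and 92.3% of the inserted clonotypes. The longest overlaps were of this kind: the 3 longest per library ran over 22 to 25 bases with 6 to 10 mismatches each. An example, with 82 reads in thymus, paired TRAV6D-7 (tied) with TRAJ28 over 25 bases with 6 mismatches, and shared 4 bases when both alignments were ended at the first mismatch.
TRAV6D-7–TRAJ28, thymus: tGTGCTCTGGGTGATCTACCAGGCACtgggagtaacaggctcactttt
Main counts are therefore also given with alignments ended at the first mismatch, a strict reading because an allelic difference ends an alignment too. In the other direction, inserted bases that happen to match the germline cannot be told from no insertion.

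By the distance as aligned, 31.8% of productive TCRα clonotypes had no inserted nucleotide in thymus (30.4 to 33.1) and 40.9% in spleen (39.8 to 42.1), a difference of 9.16 percentage points (7.35 to 10.9). Ending alignments at the first mismatch lowered the shares to 18.9% (861 clonotypes) and 29.5% (1959), and the difference was 10.5 points (8.92 to 12.1). Counting palindromic bases as inserted gave 22.3% and 28.6%, a difference of 6.30 points (4.67 to 7.92), and both together gave 13.6% and 21.4%. The level of zero-insertion joins thus depended on the definition by more than the tissues differed, whereas spleen was above thymus under each of the 4.

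The distances themselves formed a single hump in each library. It peaked at 2 inserted nucleotides in thymus (746 clonotypes, 16.4%) and at 1 in spleen (966, 14.5%), where distances of 1 and 2 (959) were almost equally frequent. Just inside the threshold, at a distance of 0, lay 465 clonotypes in thymus and 888 in spleen, and just outside it, at 1, lay 694 and 966. The median read count was 119 at a distance of 0 and 103.5 at 1 in thymus, and 158 and 130.5 in spleen. At distances of -2, -1 and 2 the most-read thymus clonotypes were TRAV6-7-DV9–TRAJ42 (1293 reads), TRAV8D-1–TRAJ12 (1031) and TRAV7D-2–TRAJ9 (1588), and at 2 in spleen it was TRAV7N-5–TRAJ26 (2062). The most-read clonotypes on either side of the threshold are shown because they differ by a single base of distance.
TRAV16D-DV11–TRAJ23, spleen, distance 0, 3572 reads: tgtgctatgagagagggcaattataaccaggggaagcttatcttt
TRAV4N-4–TRAJ12, spleen, distance 1, 6447 reads, the inserted base in capitals: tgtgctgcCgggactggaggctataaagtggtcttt
TRAV7-2–TRAJ30, thymus, distance 1, 1231 reads, the inserted base in capitals: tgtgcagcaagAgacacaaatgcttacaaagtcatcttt

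**Figure D1:**
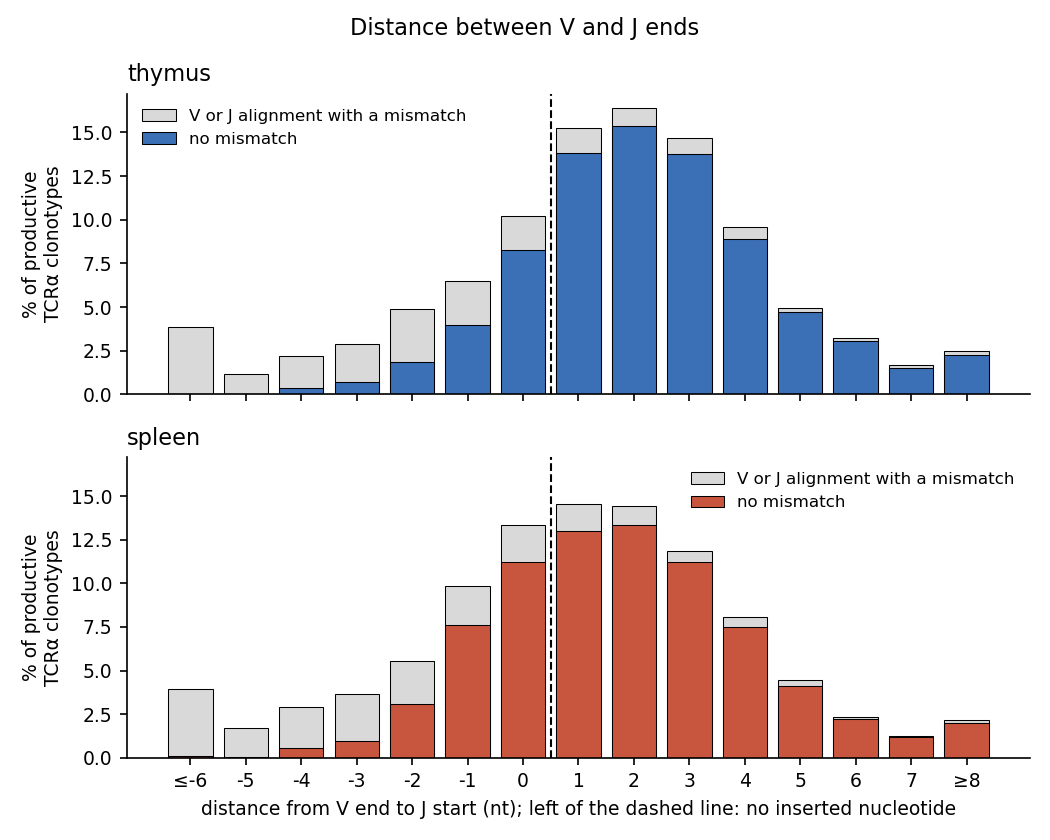
Distance from the V end to the J start (x axis, nucleotides, the outer bars pooled) against the percentage of productive TCRα clonotypes (y axis) in the thymus and spleen libraries, with the part whose alignments held no mismatch in colour. Left of the dashed line lie the 1444 and 2722 clonotypes without inserted nucleotides, and the grey part grows with the length of the overlap until almost no bar at -5 or lower is in colour.

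As aligned, overlapping ends were more common among zero-insertion joins than ends that only touched, a majority that rested on how alignments were read. The V and J ends overlapped in 67.8% of the members in thymus (979; 65.3 to 70.2) and in 67.4% in spleen (1834; 65.6 to 69.1), and the rest only touched. Among members without mismatch the shares were 45.7% (42.1 to 49.5), a minority, and 52.5% (50.0 to 54.9). With alignments ended at the first mismatch and palindromic bases counted as inserted, overlaps were the minority in both, at 41.1% and 45.8%. Most overlaps of the members without mismatch, as aligned, were short: 181 of 316 in thymus and 507 of 822 in spleen were of 1 base, and only 2 and 9 were of 5 or more.

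The shared bases and the inserted bases differed in composition, in part because of how the rule separates them. Over members without mismatch, G and C made up 50.5% of overlap bases in thymus and 44.7% in spleen, against 69.3% and 68.1% of the inserted bases in inserted clonotypes without mismatch. TdT is known to add G and C more often than A and T. An overlap base matches both germline ends, and an inserted base lies outside both alignments. The 2 kinds of base are thus split by the same end points as the rule. The G and C content of the germline ends was not measured, so a part of TdT in this difference was not tested. The most frequent shared base was A, in 30.9% of 1-base overlaps in thymus and 35.7% in spleen. Among 2-base overlaps AT led (14 of 84 and 43 of 205), among 3-base overlaps TGA (9 of 32 and 16 of 63), and among 4-base overlaps CATG (5 of 17, level with TGCA, and 11 of 38). CATG and TGCA each read the same on both strands, as P bases and the end they copy do, and 8 of the 17 and 15 of the 38 overlaps of 4 bases had P bases at both ends.

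Palindromic bases were in fact frequent. At least 1 was aligned at a V or J end in 58.0% of zero-insertion junctions in thymus and 56.5% in spleen, against 27.2% and 28.8% of inserted ones, and in junctions without mismatch in 41.7% and 42.0% against 26.7% and 27.7%. Among mismatch-free overlaps, P bases stood at an end of 38.7% of 1-base overlaps in thymus and 35.7% in spleen, of 53.6% and 57.1% of 2-base overlaps, and of 14 of 17 and 29 of 38 overlaps of 4 bases. The rule counts an aligned P base as not inserted, so each such base lowers the distance. Part of the excess over inserted junctions therefore follows from the rule. A P base is aligned only where an end is untrimmed, so these shares also follow the trimming described next.

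Fewer germline bases were counted as trimmed in zero-insertion junctions. The count is read from the same V and J end points as the rule, and a shared base counts as kept on both sides, so these values describe the members and part of the difference follows from the rule. In thymus they lacked a mean of 1.50 bases (SD 2.03) at the V end and 1.87 (SD 2.35) at the J end, against 2.38 (SD 2.45) and 3.16 (SD 2.94) in inserted junctions. In spleen they lacked 1.63 (SD 2.16) and 2.04 (SD 2.36), against 2.31 (SD 2.37) and 3.07 (SD 2.97). Neither end was trimmed in 18.2% of members in thymus and 15.7% in spleen, against 3.48% and 3.82% of inserted junctions. A run through a mismatch lengthens an alignment and so lowers the trimming counted. Without such alignments the difference was smaller but of the same sign: -0.61 bases at V (-0.79 to -0.44) and -1.02 at J (-1.22 to -0.82) in thymus, and -0.41 (-0.54 to -0.27) and -0.62 (-0.78 to -0.47) in spleen. When each shared germline base was counted once, these clonotypes had lost a mean of 4.36 bases over both ends against 5.55 in thymus, a difference of -1.20 (-1.44 to -0.95), and 4.84 against 5.40 in spleen, a difference of -0.57 (-0.76 to -0.38).

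The CDR3s without insertions were shorter. Their mean length was 39.7 nucleotides (SD 4.02) against 41.1 (SD 5.12) in thymus, a difference of -1.40 (-1.67 to -1.12), and 39.6 (SD 4.14) against 41.3 (SD 5.13) in spleen, a difference of -1.62 (-1.85 to -1.40). CDR3 length is the sum of the V bases, the J bases and the distance. As the rule fixes a gap in distance (means of -2.37 against 3.24 in thymus and -2.12 against 3.21 in spleen), the larger number of bases taken from V (13.8 against 11.6, and 13.5 against 11.8) and from J (28.3 against 26.2, and 28.3 against 26.3) restates that gap and the length difference. CDR3s of 36 nucleotides or fewer made up 26.2% of members against 18.1% of inserted clonotypes in thymus, and 29.7% against 17.2% in spleen. CDR3s of 45 or more made up 15.4% against 24.5%, and 16.3% against 26.4%.

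**Figure D2:**
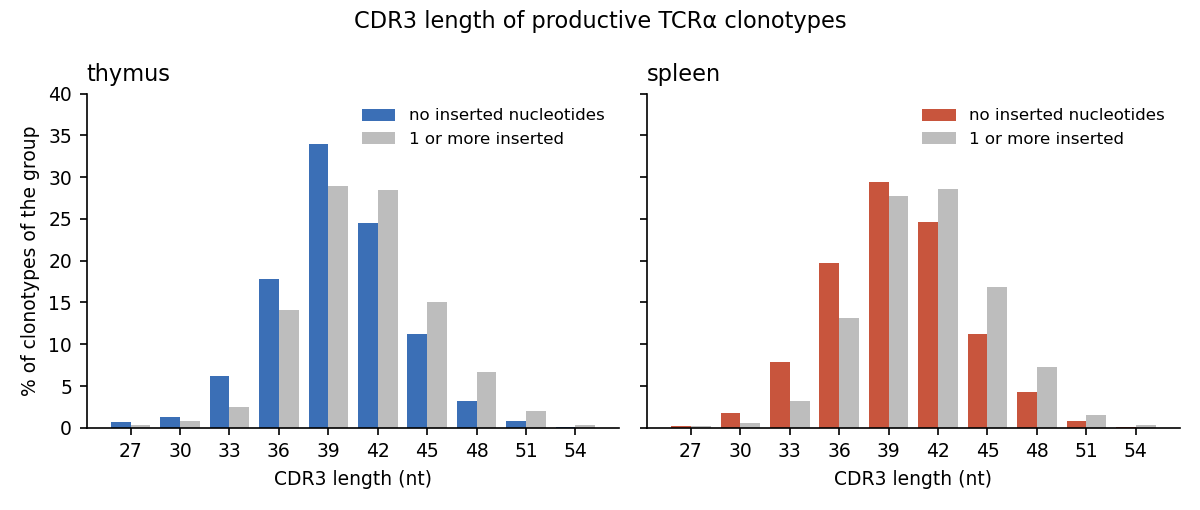
CDR3 length in nucleotides (x axis) against the percentage of clonotypes of each group (y axis), for zero-insertion clonotypes (colour) and those with 1 or more inserted nucleotides (grey) in each library; each group sums to 100% over all lengths, of which 27 to 54 are drawn. Both groups share the range, and zero-insertion clonotypes lie above at 39 nucleotides and shorter and below at 42 and longer.

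Their protein sequences held less proline. A proline stood in the CDR3 of 10.9% of members in thymus against 20.3% of inserted clonotypes, and of 11.9% against 20.9% in spleen, with means of 0.115 against 0.224 and 0.124 against 0.229 per CDR3. In clonotypes without mismatch the shares were 7.53% against 20.1%, and 8.23% against 20.6%. Glycine, which like proline is encoded by codons rich in G and C, was lower by 0.18 residues per CDR3 in each tissue. Aspartate and methionine were higher: methionine stood in 23.4% of members against 16.5% in thymus and in 23.7% against 19.8% in spleen, and aspartate in 24.2% against 19.9% and in 27.1% against 20.2%. These residues were picked after all 20 were compared, and the V and J genes of the 2 groups were not matched.

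The J genes differed in how often they were joined without insertion, and most differed between tissues in the same direction. J genes were ranked when each library held at least 40 productive clonotypes with them, which 37 did. In 35 of the 37 the zero-insertion share was higher in spleen, with a median difference of 9.29 points, and in 15 (40.5%) the interval of the difference lay above 0 and in none below. With alignments ended at the first mismatch 36 of 37 were higher in spleen. The exceptions as aligned were TRAJ53, at -5.43 points, and TRAJ12.

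Of the 37, 5 J genes (13.5%) in thymus and 7 (18.9%) in spleen had a share above that of all other clonotypes with an interval that excluded 0, and 3 (8.11%) and 5 (13.5%) had one below. As aligned, TRAJ5, TRAJ11 and TRAJ33 were above in both libraries and TRAJ37 was below in both. With alignments ended at the first mismatch, 5 J genes (13.5%) in thymus and 4 (10.8%) in spleen were above and 2 (5.41%) and 6 (16.2%) below, and of the named genes only TRAJ5 was still above in both, at 35.0% against 18.8% of the rest in thymus and 40.9% against 29.3% in spleen. TRAJ33 was then above in thymus only (33.5% against 29.4% in spleen, an interval of the difference that held 0), and TRAJ11 and TRAJ37 in neither library had an interval that excluded 0. With palindromic bases counted as inserted as well, 2 (5.41%) in thymus and 6 (16.2%) in spleen were above and 1 (2.7%) and 6 (16.2%) below, and none of these 4 genes was among them. Outside these 4, TRAJ57 was above in both libraries under both of these readings. To the first mismatch it stood at 33.3% against 18.8% of the rest in thymus and 40.3% against 29.3% in spleen. With palindromic bases inserted as well it stood at 26.7% against 13.4% and 31.9% against 21.2%. TRAJ30 was below in both libraries to the first mismatch, and TRAJ34 was below in both with palindromic bases inserted as well. Among the 37 ranked genes, the 5 highest by the mean of both shares were TRAJ5, TRAJ33, TRAJ53, TRAJ11 and TRAJ7. The 5 lowest of the 37 were TRAJ52, TRAJ45, TRAJ37, TRAJ21 and TRAJ26. The first 15 coding bases of these genes, the part that meets V, are shown with their GRCm38 positions in GENCODE M21, all on the plus strand.
TRAJ5, chr14:54213777-54213838: ggggacacaggttgt
TRAJ33, chr14:54185358-54185414: tggatagcaactatc
TRAJ53, chr14:54162644-54162709: ggaacagtggaggca
TRAJ11, chr14:54207139-54207197: tgactcgggatacaa
TRAJ7, chr14:54211470-54211528: ggactacagcaacaa
TRAJ52, chr14:54165316-54165381: ctaacactggagcta
TRAJ45, chr14:54172828-54172890: tgaatacagaaggtg
TRAJ37, chr14:54181518-54181577: taacaggcaataccg
TRAJ21, chr14:54198790-54198846: tgtctaattacaacg
TRAJ26, chr14:54194490-54194549: gaaataactatgccc

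TRAJ5 was joined without insertion in 47.5% of its 40 thymus clonotypes (32.9 to 62.5) and 57.6% in spleen. TRAJ33 stood at 49.4% (38.8 to 60.0) and 51.6%, so the libraries were close for this gene. TRAJ53 was the highest in thymus, at 53.2%, and stood at 47.8% in spleen. TRAJ11 stood at 47.6% and 52.6%. TRAJ7 had the widest gap between the libraries, 30.5% in thymus and 56.9% in spleen, 26.4 points.

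At the low end, TRAJ52 stood at 24.5% in thymus and 31.7% in spleen, and TRAJ45 at 28.6% and 30.0%. TRAJ37 stood at 25.8% (20.5 to 31.8) and 33.2%. TRAJ21 stood at 25.3% and 35.0%, and TRAJ26 at 29.0% and 31.6%. The intervals of neighbouring genes in this order overlapped, so the order within each end is not fixed by these counts. TRAJ24, unranked with 36 thymus clonotypes, lay lower still, at 13.9% in thymus (5 of 36) and 10.3% in spleen (7 of 68). Its difference from the rest was -18.0 points (-26.0 to -3.19) and -30.9 points (-36.3 to -21.4). To the first mismatch it had 0 and 1 members. TRAJ28, unranked with 31 thymus clonotypes, stood high, at 41.9% and 57.6%.

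**Figure D3:**
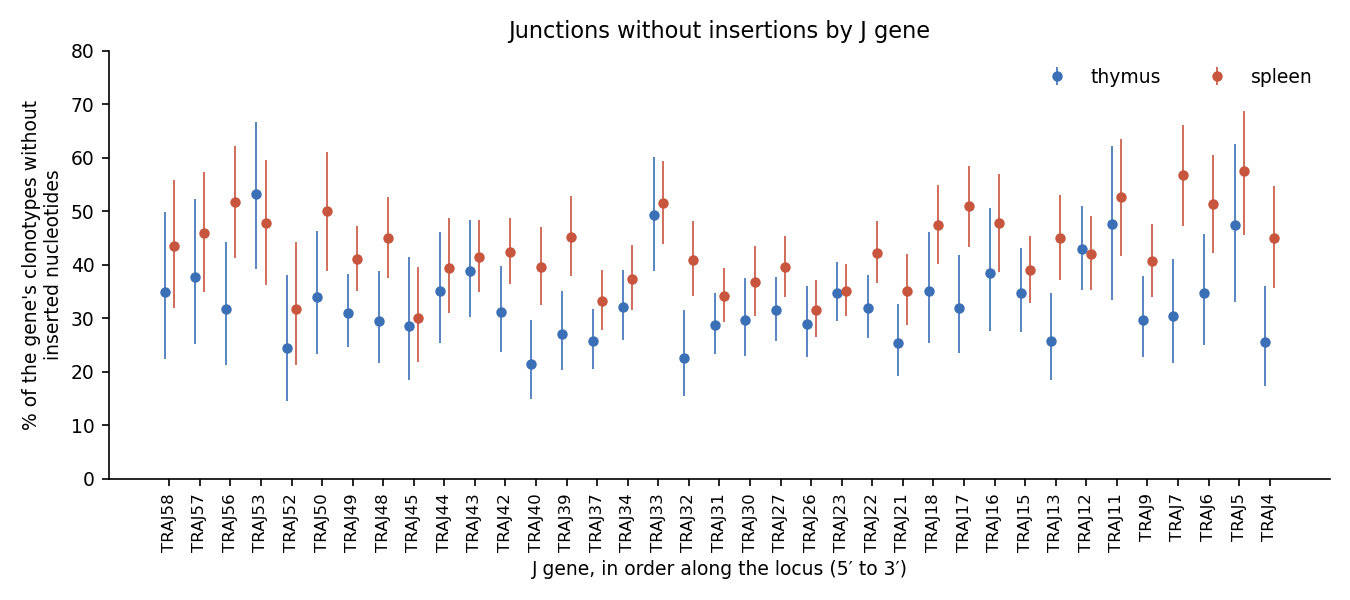
Percentage of each J gene's productive clonotypes without inserted nucleotides (y axis) for the 37 ranked TRAJ genes in their order along the locus (x axis), in thymus and spleen, with 95% Wilson intervals. Spleen lies above thymus for 35 genes, and TRAJ33, TRAJ11 and TRAJ5 stand high in both.

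Position along the J cluster went with a small difference. TRAJ44 to TRAJ24, the middle stretch, had the lowest share in both libraries, 30.0% in thymus (28.1 to 32.0) and 38.6% in spleen (36.9 to 40.3). TRAJ45 and the genes upstream stood at 33.4% (30.0 to 37.1) and 41.8%, and TRAJ23 and the genes downstream at 33.2% (31.1 to 35.4) and 43.4%. Members and inserted clonotypes were spread over the 3 stretches alike to within 5 points.

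Among V genes, grouped by family, 15 families, TRDV1 among them, passed the same minimum of 40 clonotypes. In 14 of the 15 the share was higher in spleen, and in 8 (53.3%) the interval of the difference lay above 0. TRAV10 was the exception, with 32.0% in thymus and 29.1% in spleen, and with alignments ended at the first mismatch all 15 were higher in spleen. In thymus 2 families (13.3%) were above all other clonotypes and 1 (6.67%) below, and in spleen 3 (20%) were above and 3 (20%) below. To the first mismatch the counts were 1 (6.67%) above and 2 (13.3%) below in thymus and 3 (20%) each in spleen, and with palindromic bases inserted as well 3 (20%) each in both libraries.

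As aligned, TRAV16 and TRAV8 were above the rest in both libraries. With alignments ended at the first mismatch TRAV16 was still above in both, whereas TRAV8 in thymus, at 31 of 124 clonotypes against 18.8% of the rest, was not (interval of the difference -0.67 to 14.6). With palindromic bases counted as inserted as well, both families were above in both libraries. TRAV16 had 164 zero-insertion clonotypes among 363 in thymus (45.2%; 40.1 to 50.3) and 292 among 619 in spleen (47.2%; 43.3 to 51.1), and so gave 11.4% and 10.7% of all members against 6.42% and 8.32% of inserted clonotypes. TRAV8 stood at 40.3% and 50.3%, and TRAV15, next in order, at 38.3% and 51.5%. The lowest were TRAV10, TRAV14, at 27.3% (23.9 to 31.1) in thymus and 33.8% (30.3 to 37.4) in spleen, and TRAV9, at 25.4% and 38.8%. TRAV14 was the only family below the rest in both as aligned. It was also below in both to the first mismatch, and in spleen only when palindromic bases were counted as inserted as well (in thymus 12.6% against 13.7%). Under that last reading TRAV9 and TRAV6 were below the rest in both libraries. TRAV9 stood at 5.95% against 13.9% in thymus and 17.1% against 21.6% in spleen. TRAV6 stood at 10.6% against 14.1% and 18.6% against 21.8%. Some single genes of these families lost most members at the first mismatch. TRAV6N-5 fell from 13 to 1 of 56 clonotypes and TRAV9D-2 from 8 to 1 of 23 in thymus, and TRAV6-5 from 27 to 5 of 68 in spleen. Others did not, such as TRAV6-2 in spleen, from 15 to 14 of 30. Whether the family shares rest on such genes was not tested. Some V genes are near copies of each other, and 22.6% of members in thymus and 21.5% in spleen had V genes tied for the best score.

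The V–J pairs with the most zero-insertion clonotypes all used TRAV16 genes. In thymus they were TRAV16N–TRAJ34 (9 of its 12 clonotypes), TRAV16D-DV11–TRAJ23 (8 of 13) and TRAV16D-DV11–TRAJ31 (7 of 14). In spleen they were TRAV16N–TRAJ42 (14 of 28), TRAV16N–TRAJ56 (12 of 22) and TRAV16D-DV11–TRAJ23 (11 of 25). The pairs were picked by number of members, which also follows how often their genes were used. Of all TRAV16N clonotypes 48.6% in thymus and 46.0% in spleen were members, and of all TRAV16D-DV11 clonotypes 41.8% and 48.6%. The members as a whole were spread widely, over 934 of the 1946 pairs seen in thymus and 1519 of the 2376 seen in spleen. Different nucleotide junctions gave the same protein CDR3 slightly more often than among inserted clonotypes, with 1.12 against 1.07 clonotypes per protein in thymus and 1.20 against 1.10 in spleen.

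The clonotypes with the most reads in spleen were nearly all zero-insertion junctions, and those in thymus were not. Among the 100 productive TCRα clonotypes with the most reads, 92 in spleen (Wilson 85.0 to 95.9) and 35 in thymus (26.4 to 44.7) had no inserted nucleotide. With alignments ended at the first mismatch the counts were 85 and 31, and with palindromic bases counted as inserted as well they were 73 and 21. In spleen the share fell with rank, to 63.8% at ranks 101 to 500, 48.2% at 501 to 1000, 41.6% at 1001 to 2000, 39.6% at 2001 to 4000 and 34.9% beyond. In thymus it was 39.5%, 33.8%, 32.3%, 29.8% and 29.9% over the same ranks. Among the first 10 clonotypes 6 in thymus and 8 in spleen were members. By the strict reading thymus also declined, from 31.0% of the first 100 to 16.9% of those beyond rank 4000, while spleen went from 85.0% to 22.2%.

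**Figure D4:**
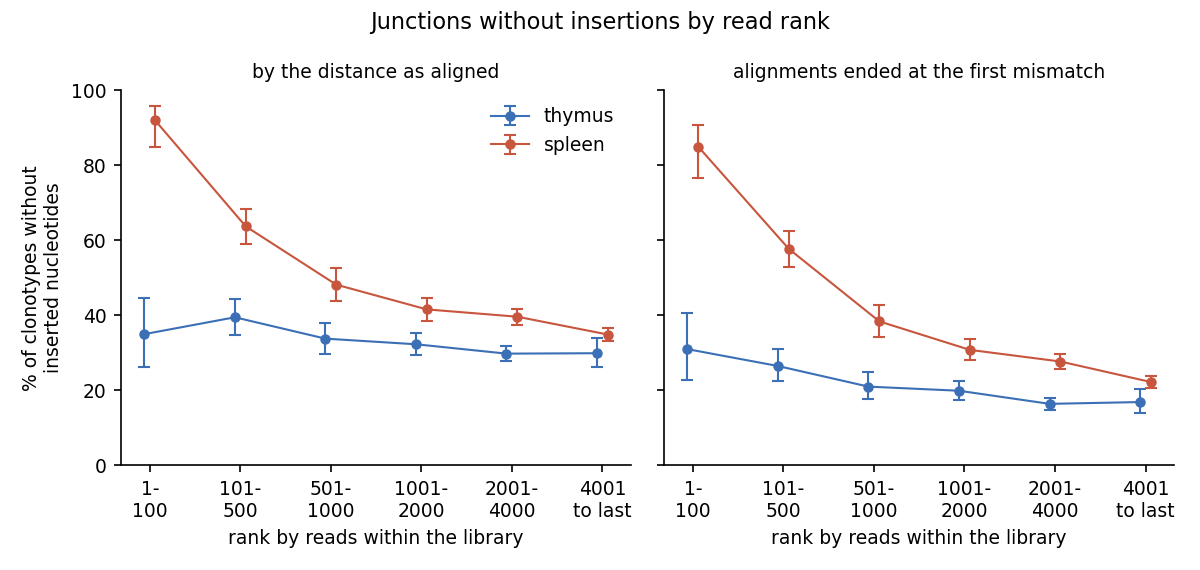
Percentage of productive TCRα clonotypes without inserted nucleotides (y axis) by rank on read count within each library (x axis), by the distance as aligned (left) and with alignments ended at the first mismatch (right), with 95% Wilson intervals. Spleen falls from 92 of the first 100 to 34.9% beyond rank 4000, and the 6 thymus points, which pool the first 100 ranks, lie between 29.8% and 39.5% on the left.

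The 92 were spread over many genes, but not evenly. They used 42 V genes from 14 families and 31 J genes, with TRAV16 (19 clonotypes) and TRAJ23 (11) the most frequent, and together held 18.3% of the productive TCRα reads. Both were more frequent than among all spleen members, of which TRAV16 made up 10.7% and TRAJ23 4.78%. Inserted spleen clonotypes with these genes also had many reads, a median of 161 for TRAV16 and 169.5 for TRAJ23 against 116 for all inserted ones. Of the 92, 70 had no mismatch and 76 had overlapping ends, 33 by 1 base. The 35 in thymus used 22 V genes and 21 J genes, with TRAV7 (12) and TRAJ23 (6) the most frequent, and held 4.80% of the reads. Among all thymus members TRAV7 made up 14.7% and TRAJ23 6.72%. Here too the inserted clonotypes with these genes had higher medians, 165 for TRAV7 and 105 for TRAJ23 against 94 for all inserted ones. The excess of these genes among the most-read members is therefore not particular to zero-insertion junctions. Ranks were not matched in reads: the first 100 ran from 1398 to 30264 reads in spleen and from 621 to 98095 in thymus.

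At matched read counts spleen was above thymus in each range except at 1 read (33.8% of 145 thymus clonotypes and 32.9% of 173 in spleen). Of the spleen clonotypes with 1000 or more reads 144 of 165 (87.3%; 81.3 to 91.5) were members, against 18 of 33 in thymus (54.5%; 38.0 to 70.2). Between 300 and 999 reads the shares were 49.8% and 37.3%, and between 10 and 99 reads 35.4% and 29.4%. With alignments ended at the first mismatch spleen was below thymus at 1 read and above it in every other range. At 1 read the shares were then 15.9% in thymus (10.8 to 22.7) and 4.62% in spleen (2.36 to 8.86). Spleen had the deeper library, with 1558832 productive TCRα reads against 778253, and no molecular identifiers are stated, so reads are not independent molecules, and more cells of a clonotype and more TCR RNA per cell cannot be told apart.

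In reads, zero-insertion clonotypes made up 30.9% of the productive TCRα total in thymus and 56.1% in spleen. The median member had 107 reads against 94 for the median inserted clonotype in thymus, and 157 against 116 in spleen. The thymus share rested in part on the largest clonotype of that library, an inserted TRAV13-1–TRAJ39 junction with 98095 reads (12.6% of productive TCRα reads), without which it was 35.4%. The same V and J genes gave the largest inserted clonotype of the spleen, with 30264 reads, and without the most-read clonotype the spleen share was 57.2%. Without the 100 most-read clonotypes the shares were 34.6% and 48.0%. Member reads were spread over an effective number of 871 clonotypes in thymus and 1130 in spleen (the exponential of the Shannon entropy), against 788 and 2150 for inserted reads. The thymus value of 788 includes the clonotype with 98095 of 537712 inserted reads and was not computed without it. In thymus the 10 most-read clonotypes held 20.5% of inserted reads and 6.74% of member reads.

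Out-of-frame clonotypes and those with a stop codon encode no working chain. They had no inserted nucleotide in 33.7% of cases in thymus (521 of 1544; 31.4 to 36.1) and 52.6% in spleen (1543 of 2932; 50.8 to 54.4), a difference of 18.9 points (15.9 to 21.8), wider than that of productive clonotypes. In thymus they differed from productive clonotypes by 1.97 points (-0.717 to 4.72), which was within counting error. In spleen they were higher by 11.7 points (9.54 to 13.9). Ending alignments at the first mismatch gave 19.0% in thymus and 42.2% in spleen. Of the 100 out-of-frame or stop clonotypes with the most reads, 37 in thymus and 67 in spleen had no insertion.

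**Figure D5:**
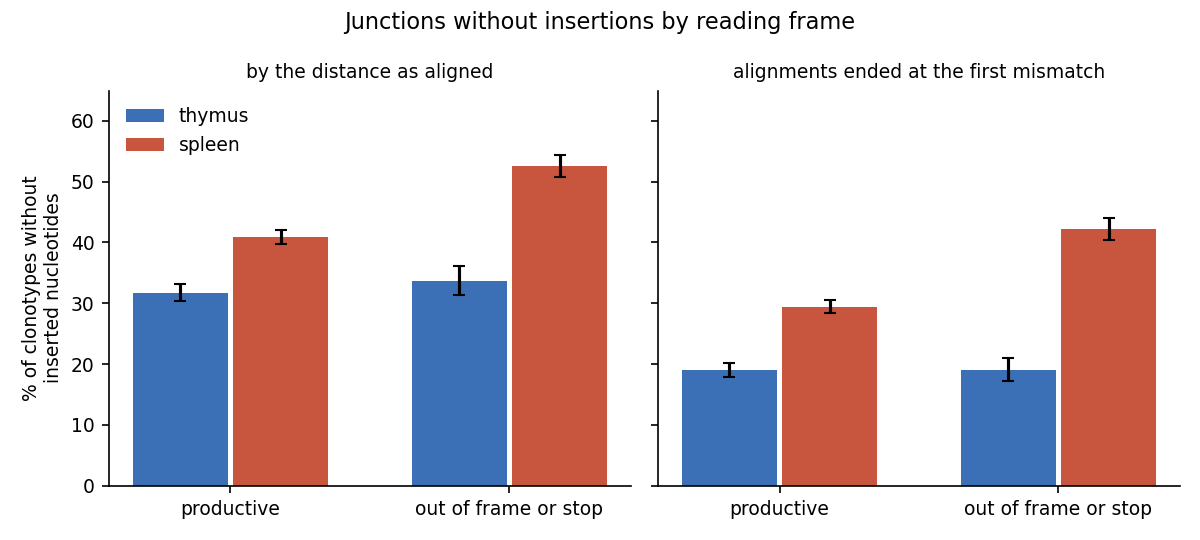
Percentage of TCRα clonotypes without inserted nucleotides (bars, y axis) among productive clonotypes and those out of frame or with a stop codon, in thymus and spleen, by the distance as aligned (left) and with alignments ended at the first mismatch (right), with 95% Wilson intervals. The spleen bars lie above the thymus bars in each pair, and the gap is wider out of frame, 18.9 against 9.16 points on the left.

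Zero-insertion CDR3 sequences recurred in the other tissue more often than inserted ones, 24.8% against 8.19% from thymus and 13.4% against 6.29% from spleen, and 352 sequences were members in both libraries. With every CDR3 seen in both libraries left out, the zero-insertion shares were 27.6% in thymus and 39.0% in spleen. The shared members with the highest smaller read count were the TRAV14D-1–TRAJ16 junction printed above, with 3096 reads in thymus and 1815 in spleen, and a TRAV16N–TRAJ26 and a TRAV14-3–TRAJ22 junction.
TRAV16N–TRAJ26, 1122 reads in thymus and 1320 in spleen, overlap of 4 as aligned and 1 to the first mismatch: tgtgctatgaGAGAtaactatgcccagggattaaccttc
TRAV14-3–TRAJ22, 1123 reads in thymus and 1062 in spleen, overlap of 3 without mismatch: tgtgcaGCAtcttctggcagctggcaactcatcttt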

How the data were processed

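TCR transcripts of sorted iT cells were sequenced, 1 library per tissue. The authors assembled CDR3 clonotypes with MiXCR (version 2.1.12 in the study's methods) and deposited per clonotype the read counts, their fraction of all reads (fraction not used further), V and J hits and alignment reference points. The germline reference used for the clonotypes is not given in the sources used here (the mm10 build is stated for the RNA-seq of the study). Productive TCRα clonotypes numbered 4545 with 778253 reads in thymus and 6651 with 1558832 in spleen. All TCRα clonotypes, productive or not, held 918063 and 1820314 reads. Of these totals, 3 reads, the limit that a count of 0 allows, are 0.000327% and 0.000165%.

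From the reference points the distance from V end to J start was computed, with trimmed and palindromic bases. Palindromic bases aligned to V or J count as not inserted. The first hit names a gene. Shares have Wilson 95% intervals, differences of shares Newcombe intervals and differences of means normal intervals, all for counting error only. They treat clonotypes as independent. Scripts (Python 3.11.15, numpy 2.4.6, pandas 2.3.3) were tested on simulated junctions for the distance, the first mismatch, trimming and ties. The simulated junctions held no palindromic bases, so the counts that rest on such bases were not tested in this way. Named were the 5 J genes and 3 V families highest and lowest by the mean share of both tissues, with at least 40 clonotypes in each. Also named were the 3 V–J pairs with most members per tissue, the 5 most-read and 3 longest-overlap members, the most-read clonotype at distances near 0, and the 3 shared members with the highest smaller read count. The members and lists were chosen with earlier results of these data known. Alternatives with mismatches, palindromic bases or most-read clonotypes were chosen after seeing the data.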

Additional observations from a re-analysis of the deposited data

Results flagged for a closer look

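The mean read count of zero-insertion clonotypes divided by that of inserted ones was 0.961 in thymus and 1.84 in spleen, and was looked at again because it lay below 1 in one tissue and above 1 in the other. The difference was not tested, since each tissue has 1 library. In thymus the direction rested on 1 clonotype: without the inserted TRAV13-1–TRAJ39 junction (98095 reads) the ratio was 1.17, and in spleen without its largest inserted clonotype 1.93. The ratios of medians, 1.14 and 1.35, lay above 1 in both.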

How the results depend on the processing

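No paired analysis was possible because each tissue has 1 library. The palindromic-base alternative fixed at the outset, which counts such bases as not inserted, equals the main rule and was not run apart. A minimum of 2 or 10 reads and removal of likely 1-nucleotide errors kept every main result within its 95% interval. The zero-insertion share (thymus, then spleen) was 18.9% and 29.5% to the first mismatch, 22.3% and 28.6% with palindromic bases as inserted, 13.6% and 21.4% with both, 19.3% and 30.2% in clonotypes without mismatch, 27.6% and 39.0% without clonotypes of both libraries, 47.0% and 55.5% at a distance of 1 or less, and 21.5% and 27.6% below 0. In spleen it was 39.1% merged by amino acid sequence and 44.5% with out-of-frame and stop clonotypes. The tissue difference moved to 12.2 points with out-of-frame clonotypes, 11.4 without clonotypes of both libraries and 6.30 with palindromic bases as inserted. The CDR3 length difference moved to -1.87 and -2.30 nucleotides with out-of-frame clonotypes, -2.30 and -2.71 with palindromic bases as inserted, and -2.26 and -2.72 with both. The overlap share moved to 46.5% and 52.7% to the first mismatch, 53.9% and 55.4% with palindromic bases as inserted, 41.1% and 45.8% with both, and 45.7% and 52.5% without mismatch. The read share, whose counting interval is narrow, moved to 30.7% and 58.2% without tied genes, 31.4% and 56.8% merged by amino acid sequence, 33.2% and 56.2% with out-of-frame clonotypes, 30.0% and 52.8% without clonotypes of both libraries, 20.5% and 47.2% to the first mismatch, 22.3% and 44.4% with palindromic bases as inserted, 15.1% and 38.0% with both, 19.1% and 48.6% without mismatch, 35.4% and 57.2% without the most-read clonotype and 34.6% and 48.0% without the 100 most-read, and in spleen to 55.8% with the chain taken from the V gene. No difference turned its sign in these, but overlaps became a minority of members in both libraries with both readings and in thymus to the first mismatch and without mismatch. Of the thymus first 100 by reads, 49 were members when merged by amino acid sequence, against 35. Of 384 values for single named genes or families 118 left their main 95% interval.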
